A study of Mus musculus with 33 samples.

Results

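The genes described here make, fold and tie together collagen. They are the 5 lysyl oxidase genes Lox, Loxl1, Loxl2, Loxl3 and Loxl4, the 3 lysyl hydroxylase genes Plod1, Plod2 and Plod3, the collagen chaperone gene Serpinh1 and the prolyl 4-hydroxylase subunit gene P4ha2. They are defined by name and are 10 of the 55401 genes in the count table. The series measured polyadenylated RNA from the frontal bone region of the mouse calvaria, the skull vault, at 11 stages of embryonic development with 3 libraries each, 33 in all. The stages run in steps of 0.5 days from E8.5 to E12.5, followed by E13.5 and E14.5. The labels name no strain, genotype or treatment. They also leave unsaid whether libraries of one stage are separate embryos or repeats of a preparation, and the p-values below speak only for the spread among libraries, which may be technical. Libraries are called a, b and c after their column names, and library values are given in that order. Levels are CPM, that is counts scaled to the depth and composition of the library, given as mean ± SD (n = 3 libraries). CPM per kilobase of exon is used where genes are compared with each other. Log2 fold changes carry an approximate standard error. A gene passed a test when its Benjamini-Hochberg adjusted p from edgeR's quasi-likelihood test was below 0.05.

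Collagen is modified inside the cell before it is secreted. Prolyl 4-hydroxylase, an enzyme of catalytic alpha subunits such as P4ha2 and the shared beta subunit P4hb, hydroxylates prolines and so makes the triple helix stable at body temperature. Lysyl hydroxylases modify lysines, Plod1 chiefly those in the helix and Plod2 those in the short end regions, and Plod3 can also add sugars to them. Serpinh1 encodes HSP47, a chaperone that binds folded procollagen in the endoplasmic reticulum. Outside the cell the lysyl oxidases, copper enzymes, oxidise lysines and hydroxylysines of collagen and elastin so that neighbouring molecules become crosslinked. Flat bones of the skull vault form directly from mesenchyme, and type I collagen is the main protein of their matrix. Several of these genes, P4ha2, Plod2 and Lox among them, are known targets of hypoxia-inducible factors, the transcription factors of the low-oxygen response.

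Promoter sequence was at hand in RefSeq's table (GRCm38.p6) for 5 of the 10 genes, and windows of 250 bases upstream of the start site are printed for 3 of them. P4ha2 and Plod1 are shown because they rose between E8.5 and E9, when several low-oxygen genes rose, and Serpinh1 because it did not pass at that step. Capitals mark ACGTG or GCGTG on either strand, the core letters of hypoxia-inducible factor sites. Matches on the 2 strands may overlap, and CACGTG would count as 2.
P4ha2 (chr11:54100674-54100923, plus strand): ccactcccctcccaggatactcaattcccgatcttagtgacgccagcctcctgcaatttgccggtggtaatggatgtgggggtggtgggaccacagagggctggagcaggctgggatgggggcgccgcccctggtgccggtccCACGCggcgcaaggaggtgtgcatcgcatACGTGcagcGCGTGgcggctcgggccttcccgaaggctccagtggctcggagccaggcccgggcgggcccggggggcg
Plod1 (chr4:147936777-147937026, minus strand): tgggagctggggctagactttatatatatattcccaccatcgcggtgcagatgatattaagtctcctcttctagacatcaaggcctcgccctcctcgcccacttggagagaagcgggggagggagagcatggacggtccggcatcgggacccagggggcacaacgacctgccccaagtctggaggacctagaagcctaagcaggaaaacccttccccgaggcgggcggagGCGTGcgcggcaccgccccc
Serpinh1 (chr7:99353240-99353489, minus strand): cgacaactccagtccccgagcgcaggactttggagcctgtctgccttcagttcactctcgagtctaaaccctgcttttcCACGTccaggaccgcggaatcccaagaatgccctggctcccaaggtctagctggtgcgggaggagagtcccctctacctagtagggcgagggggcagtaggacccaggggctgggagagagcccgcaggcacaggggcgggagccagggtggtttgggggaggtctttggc

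The P4ha2 window holds 3 matches, which begin at positions -107, -78 and -69 from the start site, and Plod1 and Serpinh1 hold 1 each, at -20 and -171. The windows not printed are those of Plod3, with 4 matches, and Loxl4, with 1, and neither gene passed from E8.5 to E9 (Plod3 0.09 ± 0.09 on the log2 scale, adjusted p = 0.513; Loxl4 -0.77 ± 0.63, adjusted p = 0.424). Of 32851 windows of the same length in the table, 38.6% hold the motif, so a match is common and describes the letters alone. The heat shock motif GAANNTTC, searched on both strands, is in 6.69% of all windows and in none of the 5 of these genes. The P4ha2 start lies within the annotated gene, which has a further start upstream of it.

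A further sequence concerns Plod2. An annotated coding transcript of this gene carries a 63-base exon (chr9:92601985-92602047, plus strand, GRCm38) that other transcripts skip, and the enzyme form with the exon is the one known for hydroxylating the end regions of collagen. The exon, from the GENCODE M21 transcripts, adds 21 codons.
Plod2 exon 14 of 20: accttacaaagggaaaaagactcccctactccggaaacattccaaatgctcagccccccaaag
The table counts reads per gene, so Plod2 levels below sum the forms with and without it.

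Column totals ran from 14516518 to 19964404 counts, and 20073 genes, with all 10 members among them, passed a filter on low counts. The order of the libraries departed from their labels in places. On the first principal component of log2 CPM (47.1% of the variance) the libraries labelled E11.5 (mean 84.1) lay beyond those labelled E12 (22.1) and E12.5 (41.9), and E10 lay beyond E10.5. Those labelled E11 (34.6) also lay beyond E12. Pairs of libraries within a stage correlated across genes at 0.988 or more except at E12 (lowest 0.965) and E13.5 (lowest 0.975). The labelled tissue holds more than bone. The summed CPM of 8 osteoblast markers was 43.2 to 50.3 at E8.5, with Dmp1 at 0, and 599 to 628 at E14.5, when each had counts. Ibsp and Dmp1 were at 0 at E9 and E9.5. The 6 cranial mesenchyme markers summed to 192 to 195 CPM at E8.5 and 2150.0 to 2240.0 at E14.5, and the 6 neural progenitor markers to 687 to 717 and 147 to 151.

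Each of the 10 genes varied over the stages in a test of any change, which 95.3% of tested genes passed. From the first stage to the last, 8 members rose, 1 fell and 1 did not pass, where 41.1% of all tested genes rose and 33.5% fell. In all 10 the libraries of these stages did not overlap, as in 80.4% of tested genes. The median log2 change was 1.05 over the members and 0.16 over all tested genes. The largest rise among the members was that of Lox, about 119-fold, and the fall was that of Loxl2, about 1.21-fold. Plod3 did not pass. Over the 10 steps from one labelled stage to the next, 34 of 100 gene-by-step changes were rises, 19 were falls and 47 did not pass. Comparisons that have a stage in common share its libraries, so their values are not independent of each other.

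**Figure D1:**
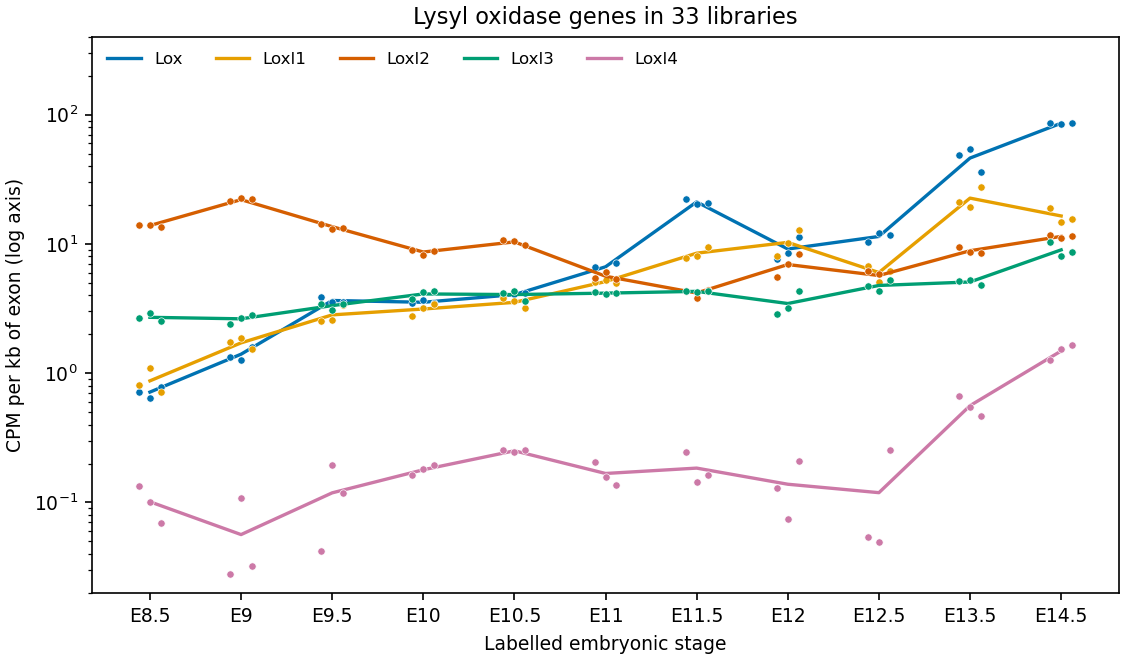
CPM per kilobase of exon of the 5 lysyl oxidase genes on a log axis against the labelled stage; points are the 3 libraries of a stage and lines join stage means. Loxl2 has the highest mean of the family from E8.5 to E10.5, and Lox has it at E14.5, at 85.8 ± 1.2 CPM per kilobase.

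Lox, the founding lysyl oxidase, had 3.44, 3.05 and 3.74 CPM in the 3 libraries of E8.5 and 413, 404 and 413 CPM in those of E14.5. In between it had 18.8, 19.5 and 19.8 CPM at E10.5, 49.5, 58.5 and 55.6 at E12.5 and 234, 257 and 171 at E13.5. No libraries of these 5 stages overlapped, and each later stage was higher. The log2 change from E8.5 to E14.5 was 6.90 ± 0.16 (adjusted p = 7.95e-25). Rises passed in each window, by 2.50 ± 0.15 from E8.5 to E10.5, 1.50 ± 0.12 from E10.5 to E12.5 and 2.91 ± 0.12 from E12.5 to E14.5. The libraries labelled E11.5 broke this order. Lox stood at 106, 98.0 and 99.2 CPM there, against 36.3, 40.5 and 54.0 at E12, a fall of 1.21 ± 0.12 on the log2 scale (adjusted p = 1.08e-09). From E11 to E12.5, passing over both labels, Lox rose by 0.78 ± 0.12 (adjusted p = 1.96e-05). In tissue of mixed cells, more cells of a type and more RNA per cell cannot be told apart, and the part of the growing mesenchyme and osteoblast marker sums in this rise was not tested. The gene lies at chr18:52516067-52529867 on the minus strand (GRCm38).

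Loxl1, the family member known for elastic fibre assembly, had 2.67, 3.62 and 2.34 CPM at E8.5, 16.6, 17.5 and 16.4 at E11, 69.1, 63.7 and 90.6 at E13.5 and 62.7, 48.9 and 51.0 at E14.5. The 3 libraries of E13.5 were the highest of all 33, and those of E8.5 were below every other stage. From E8.5 to E14.5 it rose by 4.24 ± 0.19 on the log2 scale (adjusted p = 3.5e-18). Its last step was a fall of 0.46 ± 0.15 (adjusted p = 0.0102), which did not pass without E13.5 library c (-0.30, adjusted p = 0.101), without E14.5 library b (-0.39, adjusted p = 0.0564) or with totals alone as the scaling (-0.30, adjusted p = 0.116). At E12 Loxl1 had 10.3 ± 2.4 CPM per kilobase of exon and Lox 9.13 ± 1.9, a difference of means within the spread of those libraries, though Loxl1 was the higher of the pair in each of the 3.

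Loxl2, a lysyl oxidase known for acting on basement membrane collagen, took another path. It was highest at E9, with 115, 122 and 119.5 CPM, after 75.5, 76.2 and 73.1 at E8.5, and lowest in the libraries labelled E11.5, with 23.3, 20.7 and 23.6. It then stood at 33.4, 31.6 and 27.4 CPM at E12.5 and 63.7, 59.6 and 62.1 at E14.5. The libraries of E9 were above those of every other stage, and those of E14.5 were still below those of E8.5. The rise from E8.5 to E9 was 0.67 ± 0.10 on the log2 scale (adjusted p = 8.83e-06). It fell by 0.42 ± 0.10 from E8.5 to E10.5 and by 0.86 ± 0.10 from E10.5 to E12.5, and rose by 1.00 ± 0.10 from E12.5 to E14.5 (adjusted p = 5.97e-10). The net fall from E8.5 to E14.5, 0.28 ± 0.10 (adjusted p = 0.0109), turned to 0.15 with totals alone (adjusted p = 0.254). It did not pass without the filter on low counts (-0.24, adjusted p = 0.0989) or with a stricter one (-0.07, adjusted p = 0.525). The fall to E10.5 also did not pass with totals alone (-0.25, adjusted p = 0.0965).

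Loxl3, which mice need for palate and spine development, rose from 12.2, 13.49 and 11.6 CPM at E8.5 to 47.6, 37.0 and 39.5 at E14.5, a log2 change of 1.73 ± 0.12 (adjusted p = 7.02e-14). Its means were 15.3 ± 0.9 CPM at E9.5 and 23.4 ± 0.95 at E13.5, and the last step added 0.82 ± 0.11 on the log2 scale (adjusted p = 4.81e-07). Its exons share 535 bases (11.6% of its exonic length) with Htra2 on the opposite strand. The sources used here do not state a strand setting, so reads of both genes may not be told apart there.

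Loxl4 was the rarest member, with 791 counts over all libraries and a mean of 0.306 CPM per kilobase. It had 0.562, 0.426 and 0.292 CPM at E8.5, 0.230, 0.208 and 1.07 at E12.5, 2.82, 2.29 and 1.98 at E13.5 and 5.35, 6.42 and 7.002 at E14.5. The libraries of E13.5 and E14.5 were above all others. From E12.5 to E14.5 Loxl4 rose by 3.66 ± 0.40 on the log2 scale (adjusted p = 4.53e-09). An early rise to E10.5 (1.32 ± 0.48, adjusted p = 0.0252) did not pass without E8.5 library b (adjusted p = 0.057), E8.5 library c (adjusted p = 0.111) or E10.5 library c (adjusted p = 0.052). The change from E10.5 to E12.5 (-1.10 ± 0.46, adjusted p = 0.0603) became -2.24 without E12.5 library c (adjusted p = 0.00105).

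**Figure D2:**
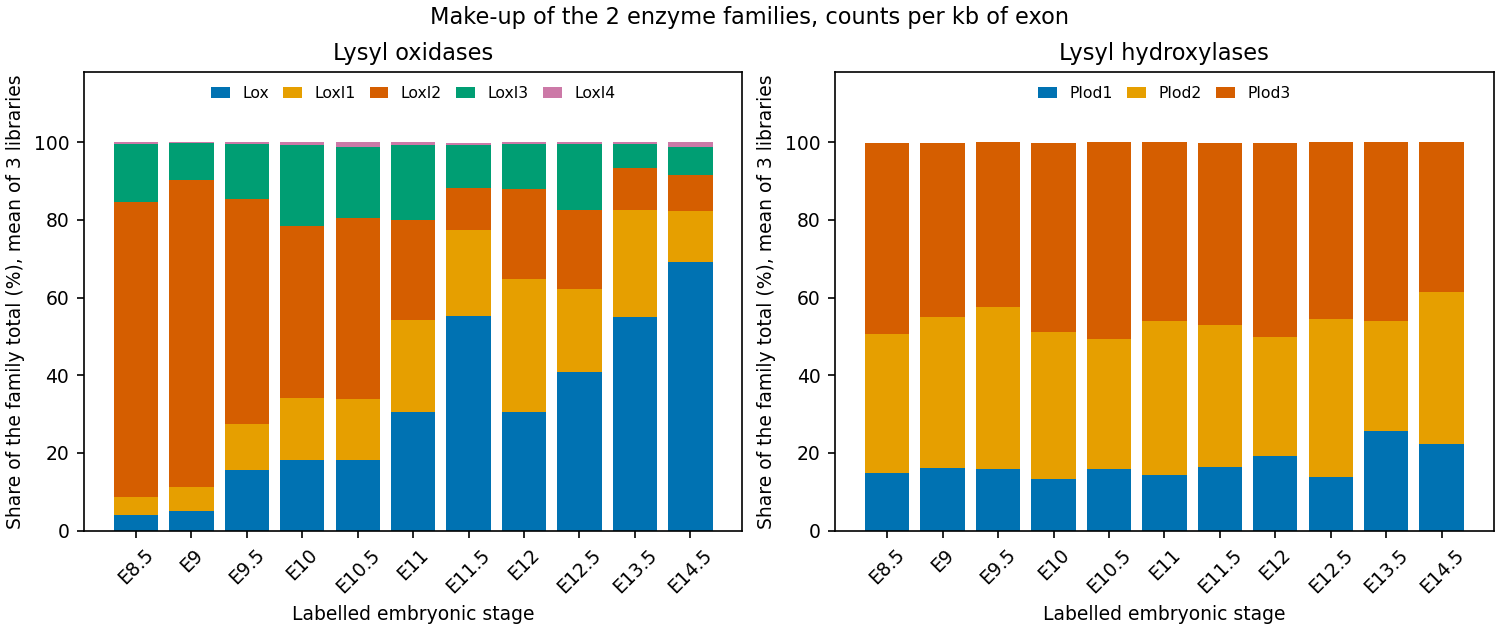
Share of each gene in the summed counts per kilobase of exon of its family (percent, mean of 3 libraries) by labelled stage, lysyl oxidases and lysyl hydroxylases. Between E8.5 and E14.5 Loxl2 goes from 76.0% to 9.21% and Lox from 3.92% to 69.2%.

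These courses exchanged the leading lysyl oxidase. Within each library, counts per kilobase of exon were taken as shares of the family, a measure that does not depend on how libraries are scaled. Loxl2 made up 74.7% to 76.8% of the family at E8.5 and 9.14% to 9.29% at E14.5. Lox made up 3.38% to 4.44% at E8.5 and 67.1% to 70.5% at E14.5. At E11 Lox had 30.6% ± 2.4 and Loxl2 25.9% ± 1.6, without overlap, and Lox stayed above Loxl2 at every later label. Loxl1 went from 4.76% ± 0.94 to 13.2% ± 1.3 by way of 34.3% ± 0.91 at E12, where its mean share was the largest. Loxl3 went from 14.8% ± 0.64 to 7.22% ± 0.7, although its level rose. For each of the 5 genes the libraries of E8.5 and E14.5 did not overlap. The two-sided exact permutation test gave p = 0.1 for each (adjusted p = 0.1 over the 5), the smallest value that 3 against 3 libraries allow.

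**Figure D3:**
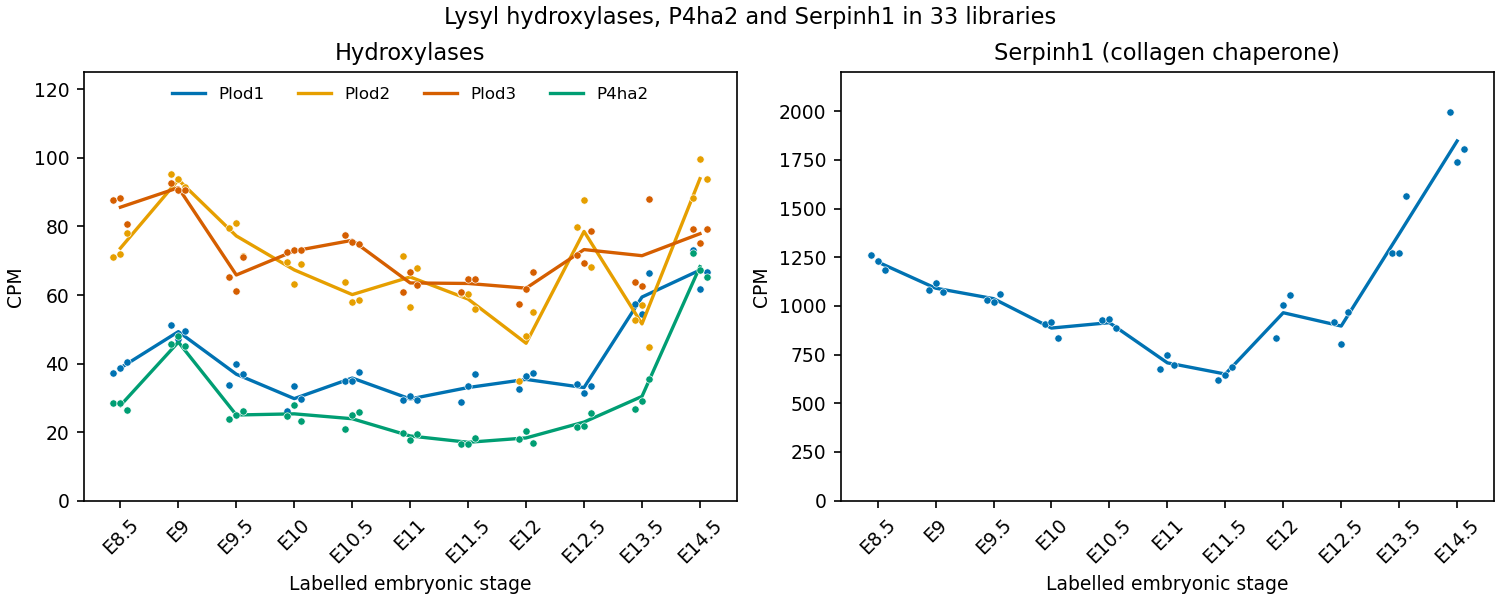
CPM of Plod1, Plod2, Plod3 and P4ha2 in one panel and of Serpinh1 in the other against the labelled stage; points are the 3 libraries of a stage and lines join stage means. P4ha2 peaks at E9 and at E14.5, and Serpinh1 is lowest at E11.5 and highest at E14.5.

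Plod1, the lysyl hydroxylase of the helix, had 37.1, 38.7 and 40.3 CPM at E8.5, 34.1, 31.4 and 33.5 at E12.5, 57.5, 54.4 and 66.4 at E13.5 and 73.2, 61.8 and 66.8 at E14.5. The 6 libraries of the last 2 stages were above the other 27. The rise from E12.5 to E14.5 was 1.03 ± 0.10 on the log2 scale (adjusted p = 2.99e-10), and from E8.5 it was 0.80 ± 0.10 (adjusted p = 1.87e-08). From E8.5 to E10.5 (-0.11 ± 0.10, adjusted p = 0.348) and from E10.5 to E12.5 (-0.12 ± 0.10, adjusted p = 0.381) it did not pass. With a trend on gene length removed from each library, the change from E8.5 to E10.5 was -0.40 (adjusted p = 0.00292).

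Plod2, the lysyl hydroxylase of the end regions, moved up and down. It had 71.1, 71.8 and 78.0 CPM at E8.5, 95.4, 93.9 and 91.6 at E9, 79.8, 87.7 and 68.2 at E12.5, 52.6, 57.2 and 44.95 at E13.5 and 88.4, 99.7 and 93.7 at E14.5. Its libraries at E13.5 lay below those of both neighbouring stages. The fall from E12.5 to E13.5 was 0.61 ± 0.12 on the log2 scale (adjusted p = 7.54e-05) and the rise from E13.5 to E14.5 was 0.86 ± 0.12 (adjusted p = 3.99e-07). The net rise from E8.5 to E14.5, 0.35 ± 0.12 (adjusted p = 0.0079), turned to -0.08 with the length trend removed (adjusted p = 0.44). The fall from E8.5 to E10.5 (0.29 ± 0.12, adjusted p = 0.0372) did not pass with totals alone (-0.12, adjusted p = 0.51), nor when any one of E8.5 libraries b and c and E10.5 libraries b and c was left out (adjusted p = 0.0573 to 0.128). The rise from E10.5 to E12.5 (0.39 ± 0.12, adjusted p = 0.00927) did not pass without E12.5 library b (0.30, adjusted p = 0.0774).

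Plod3, whose product also glycosylates collagen, varied least of the 10, by 1.47-fold between its highest stage mean (91.3 ± 1.1 CPM at E9) and its lowest (62.0 ± 4.7 at E12). It had 87.8, 88.2 and 80.8 CPM at E8.5 and 79.1, 75.2 and 79.4 at E14.5, a log2 change of -0.14 ± 0.09 (adjusted p = 0.18). With totals alone this was 0.30 (adjusted p = 0.00783) and with the length trend removed -0.60 (adjusted p = 9.42e-07), so its direction depends on the scaling. Without E13.5 library c, Plod3 changed by -0.21 at the step to E13.5 (adjusted p = 0.0226). Its exons share 529 bases (11.7%) with Znhit1 on the opposite strand.

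As shares of the 3 hydroxylases per kilobase of exon, Plod3 went from 49.4% ± 2.4 to 38.6% ± 0.91, Plod1 from 14.9% ± 0.59 to 22.3% ± 1.8 and Plod2 from 35.6% ± 1.8 to 39.1% ± 2.6. The libraries of E8.5 and E14.5 did not overlap for Plod3 and Plod1 (exact permutation p = 0.1, adjusted p = 0.15 over the 3) and overlapped for Plod2 (exact permutation p = 0.2, adjusted p = 0.2).

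P4ha2, a catalytic subunit of prolyl 4-hydroxylase, had 2 peaks. It had 28.4, 28.4 and 26.5 CPM at E8.5, 45.6, 48.1 and 45.2 at E9 and 23.8, 25.1 and 26.1 at E9.5. It stood at 16.5, 16.4 and 18.2 CPM at E11.5 and 72.2, 67.4 and 65.2 at E14.5. The libraries of E9 stood clear of both neighbouring stages, and those of E14.5 were above all others. The rise to E9 was 0.74 ± 0.10 on the log2 scale (adjusted p = 3.65e-06) and the fall after it 0.89 ± 0.10 (adjusted p = 1.06e-07). From E12.5 to E14.5 it rose by 1.57 ± 0.10 (adjusted p = 5.22e-14), and over the whole course by 1.30 ± 0.10 (adjusted p = 1.11e-12).

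Of the 3 other prolyl 4-hydroxylase genes, 2 rose and 1 fell from E8.5 to E14.5. The alpha subunit gene P4ha1 was more abundant than P4ha2, at 27.0 ± 0.62 CPM per kilobase at E8.5 against 4.45 ± 0.17. The size of this gap depends on length, since the exonic length of P4ha2 is 2.76 times its longest coding transcript. Without division by length the levels were 111 ± 2.6 CPM for P4ha1 and 27.8 ± 1.1 for P4ha2. P4ha1 also rose at E9, from 111 ± 2.6 to 167 ± 6.8 CPM (log2 change 0.59 ± 0.07, adjusted p = 2.42e-07). Over the whole course it rose by 0.33 ± 0.07 (adjusted p = 8.05e-05), a change that turned to -0.15 with the length trend removed. The third alpha subunit gene, P4ha3, rose from 0.911 ± 0.2 to 49.6 ± 0.38 CPM, by 5.74 ± 0.26 on the log2 scale (adjusted p = 2.49e-18). P4hb, a disulfide isomerase with many other clients, fell by 0.36 ± 0.09 from 856 ± 30 CPM (adjusted p = 0.000463), which turned to 0.08 with totals alone.

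At the step from E8.5 to E9, 6 members rose and none fell, where 20.2% of all tested genes passed in either direction and 7.66% fell. Besides P4ha2 and Loxl2 these were Lox (0.96 ± 0.17), Loxl1 (0.99 ± 0.21), Plod1 (0.35 ± 0.10) and Plod2 (0.35 ± 0.12). Plod1 did not pass without E8.5 library a (0.31, adjusted p = 0.0641), and Plod2 did not pass when any one of E8.5 libraries a and b and the 3 E9 libraries was left out (adjusted p = 0.0655 to 0.141). Neither passed with the length trend removed (adjusted p = 0.142 and 0.0637). Serpinh1 (-0.17 ± 0.09, adjusted p = 0.179) passed as a fall when E8.5 and E9 were fitted alone (-0.20, adjusted p = 4.99e-05). Of 10 low-oxygen target genes, 7 rose at this step and none fell, with a median log2 change of 0.84 against 0.03 over all tested genes. From E9 to E9.5, 9 of these 10 genes fell. The members split at that step, with rises of Lox, Loxl1 and Loxl3 and falls of Loxl2, Plod1, Plod3 and P4ha2 (11.1% of tested genes rose and 11.7% fell). The rise of Loxl3 (0.34 ± 0.12, adjusted p = 0.0408) did not pass when any one of E9 libraries a and b and E9.5 libraries a and c was left out (adjusted p = 0.0914 to 0.183). No relation between the members and the low-oxygen genes was tested.

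Serpinh1 was by far the most abundant member, with a mean of 431 CPM per kilobase over the libraries. Lox was next by that mean (17.6), although at E8.5 it had 0.714 against 18.95 for Plod3. Serpinh1 had 1260.0, 1233 and 1185 CPM at E8.5, 926, 931 and 886 at E10.5, 618, 646 and 687 at E11.5 and 919.6, 804 and 966 at E12.5. It reached 1274, 1271 and 1565 CPM at E13.5 and 1998, 1739 and 1804 at E14.5. The libraries of E14.5 were above all others and those of E8.5 above those of E10.5 to E12.5. It fell by 0.42 ± 0.09 on the log2 scale from E8.5 to E10.5 (adjusted p = 0.000176) and rose by 1.04 ± 0.09 from E12.5 to E14.5 (adjusted p = 2.33e-11). The net rise of 0.59 ± 0.09 (adjusted p = 5.44e-07) did not pass with the length trend removed (0.11, adjusted p = 0.241).

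**Figure D4:**
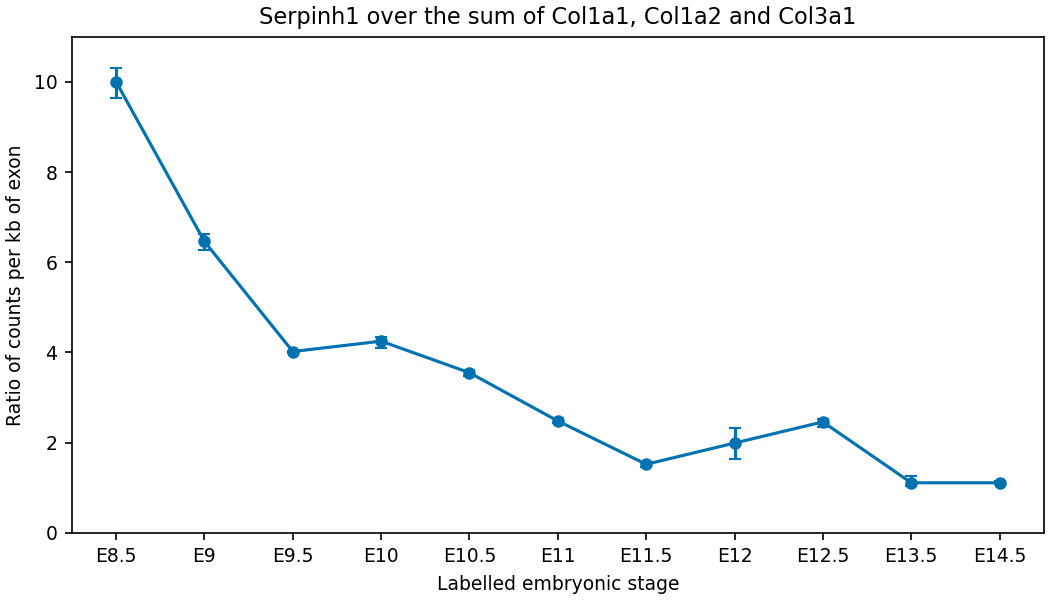
Ratio of Serpinh1 to the sum of Col1a1, Col1a2 and Col3a1, all as counts per kilobase of exon within a library, by labelled stage; points are means of 3 libraries and bars span the lowest and highest library. The 3 libraries lie at 9.65 to 10.3 at E8.5 and at 1.08 to 1.16 at E14.5.

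Relative to the collagen genes Col1a1, Col1a2 and Col3a1, Serpinh1 was lower at the end of the course. Its own level rose from E8.5 to E14.5 (0.59 ± 0.09 on the log2 scale), while Col1a1 rose by 6.70 ± 0.20. The level of the ratio depends on the lengths used. The exonic length is 2.32 times the longest coding transcript for Col1a2, 1.76 times for Col3a1 and 1.07 times for Serpinh1. The ratio of Serpinh1 to the sum of Col1a1, Col1a2 and Col3a1, per kilobase of exon, was 9.65 to 10.3 at E8.5, 3.47 to 3.60 at E10.5, 2.35 to 2.53 at E12.5 and 1.08 to 1.16 at E14.5. At E11.5 it was 1.46 to 1.57, below both E12 and E12.5. The libraries of E8.5 and E14.5 did not overlap (two-sided exact permutation p = 0.1, the smallest that 3 against 3 allow). The mean log2 ratio changed by -3.17 from E8.5 to E14.5, and by -4.89 with Col1a1 and Col1a2 alone as the denominator.

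**Figure D5:**
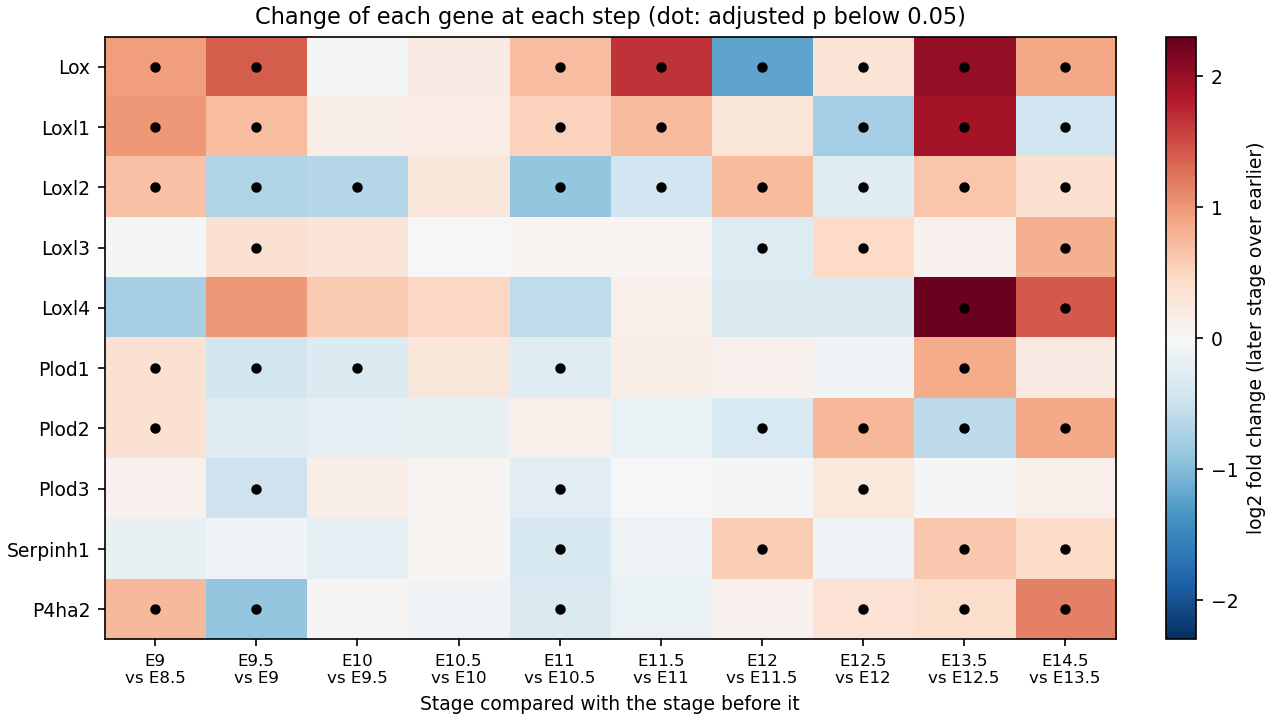
Log2 fold change of each of the 10 genes (rows) at each of the 10 steps from one labelled stage to the next (columns), coloured by size and direction; a dot marks an adjusted p below 0.05. The last 2 steps hold 14 of the 34 rises, and Lox falls from E11.5 to E12.

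The last 2 steps held 14 of the 34 rises. From E12.5 to E13.5, 7 members rose and 1, Plod2, fell (27.2% of tested genes rose and 25.9% fell). From E13.5 to E14.5, 7 rose and 1, Loxl1, fell (24.0% of tested genes rose and 26.9% fell). Without E13.5 library c the counts were 7 rises and 2 falls at the first of these steps and 9 rises and no fall at the second, and without E14.5 library b the second had no fall. The step to E13.5 raised Lox by 2.01 ± 0.12, Loxl1 by 1.91 ± 0.15, Loxl4 by 2.25 ± 0.42 and Serpinh1 by 0.61 ± 0.09, and that to E14.5 raised P4ha2 by 1.17 ± 0.10 and Loxl4 by 1.40 ± 0.32. Across both, 8 rose, none fell and Plod2 and Plod3 did not pass (25.3% of tested genes rose and 28.6% fell). The median log2 change was 1.04 over the members and -0.03 over all tested genes. Plod2 (0.26 ± 0.12, adjusted p = 0.0603) passed as a rise under other settings, such as totals alone (0.40, adjusted p = 0.0211) and without E12.5 library b (0.34, adjusted p = 0.0292). Plod3 (0.09 ± 0.09, adjusted p = 0.438) passed as a rise at a mean of at least 5 CPM (0.25, adjusted p = 0.0123) and in a fit without E11.5, E12 and E13.5 (0.14, adjusted p = 0.0389). Between E12.5 and E14.5 the sum of the 8 osteoblast markers went from 30.1 to 33.6 CPM to 599 to 628, that of 5 epidermal markers from 75.1 to 87.1 to 1030.0 to 1190.0, that of 4 tendon markers from 32.0 to 35.5 to 95.5 to 101, that of 5 muscle markers from 21.2 to 23.5 to 288 to 323, and that of the 6 mesenchyme markers from 509 to 548 to 2150.0 to 2240.0. Over the same window the sum of 5 neuron markers went from 1550.0 to 1570.0 down to 519 to 537 CPM, and that of the 6 neural progenitor markers from 998 to 1090.0 down to 147 to 151. The 6 cartilage markers went from 134 to 151 CPM to 403 to 410, and the 5 endothelial markers from 224 to 241 to 393 to 416. The 5 macrophage markers went from 50.5 to 56.1 CPM to 90.8 to 101, and the 4 erythroid markers from 35.5 to 41.0 to 37.7 to 40.3. No marker of these lists was at 0 at either stage. The part of these changes in the members' rises was not tested.

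Earlier windows were mixed. From E8.5 to E10.5, 4 members rose and 3 fell (28.2% of tested genes rose and 21.3% fell), and the number that fell ran from 1 with totals alone to 6 with the length trend removed. From E10.5 to E12.5, 3 rose and 1, Loxl2, fell (18.8% of tested genes rose and 17.2% fell); 2 fell without E12.5 library c. Between E9.5 and E10, no member rose and 2 fell (26.7% of tested genes passed in either direction and 12.3% fell), and between E10 and E10.5 none passed (5.73% of tested genes rose and 2.74% fell). The falls to E10 numbered 1 without any one of E9.5 libraries b and c and E10 libraries a and c, and without E10 library b 1 member rose at E10.5. Between E10.5 and E11, 2 rose and 5 fell (19.2% of tested genes rose and 17.3% fell). Without E10.5 library c this was 1 rise and 2 falls, and without E10.5 library b or E11 library a or c it was 2 rises and 3 falls. Around the stages out of order, 2 rose and 1 fell from E11 to E11.5 (10.7% of tested genes rose and 12.3% fell), 2 rose and 3 fell from E11.5 to E12 (33.3% of tested genes rose and 35.6% fell), and 5 rose and 2 fell from E12 to E12.5 (32.0% of tested genes rose and 31.0% fell). Without E12 library a the step to E12 had 3 rises and 1 fall and the step to E12.5 had 3 rises and 2 falls. The step to E12.5 had 2 rises without E12.5 library c and 1 fall without E12 library b or c. From E11 to E12, 5 rose and 1 fell (31.3% of tested genes rose and 32.8% fell), though 2 rose without E12 library c. From E11 to E12.5 there were 2 rises, Lox and Serpinh1 (0.34 ± 0.09, adjusted p = 0.00648), and no fall (6.59% of tested genes rose and 6.94% fell). Without E12.5 library c Serpinh1 did not pass there (0.28, adjusted p = 0.059) and Loxl4 fell.

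Other genes of collagen assembly were counted in lists from E8.5 to E14.5, to be read against the same shares of all tested genes. Of 6 genes of the prolyl 3-hydroxylase family and its partners, 5 rose and P3h2 fell (median log2 change 1.31). P3h3 rose by 2.78 ± 0.12 and P3h4 by 1.52 ± 0.09. Of 10 genes for other collagen chaperones, glycosylation and export, 8 rose, 1 fell and 1 did not pass (median 1.88). Among them Fkbp7, a prolyl isomerase of the endoplasmic reticulum, rose by 3.92 ± 0.22 and Creb3l1, a transcription factor of collagen secretion in bone, by 3.31 ± 0.18. Of 8 procollagen processing genes 7 rose and Adamts3 did not pass (median 2.24). The amino-terminal propeptidase genes Adamts2 (6.11 ± 0.24) and Adamts14 (3.12 ± 0.20) rose most. Of 10 collagen genes 7 rose, 1 fell and 2 did not pass (median 2.45), or 9 rises and no fall with totals alone. Col1a1 rose by 6.70 ± 0.20 and Col6a1, of microfibrillar collagen, by 5.79 ± 0.19. All 7 elastic substrates and scaffolds of lysyl oxidases rose (median 5.16), with elastin (Eln) at 6.95 ± 0.18 and periostin (Postn) at 6.40 ± 0.14.

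The general folding genes of the endoplasmic reticulum serve secreted proteins of every kind. From E8.5 to E14.5 all 10 fell (median -0.75), or 6 of them with totals alone, when none rose. Sdf2l1 fell by 1.995 ± 0.17 and Dnajb11 fell by 1.06 ± 0.09. All 10 also fell from E8.5 to E10.5, when Serpinh1 fell (21.3% of tested genes fell). From E11.5 to E12, 9 of 10 rose (33.3% of tested genes rose) and Serpinh1 rose by 0.57 ± 0.09. That rise was 0.20 with totals alone (adjusted p = 0.0669). From E11 to E11.5, 9 of 10 fell (12.3% of tested genes fell) and Serpinh1 did not pass (-0.12 ± 0.09, adjusted p = 0.344). Both steps use the E11.5 libraries, which were out of order. From E12.5 to E14.5 Serpinh1 rose by 1.04 ± 0.09, while 3 of the 10 rose and 2 fell (25.3% of tested genes rose and 28.6% fell). Those counts depend on the settings. With the length trend removed none of the 10 rose and 5 fell, and with E11.5 in place of E12.5, 7 rose and none fell. The falls numbered 1 with totals alone, with no filter or with DESeq2. For copper supply, Atp7a, the pump that loads copper into lysyl oxidases, rose by 1.22 ± 0.34 (adjusted p = 0.00179), while the importer Slc31a1 (-0.10 ± 0.08, and 0.33 with totals alone) and the copper chaperone Atox1 (0.34 ± 0.23) did not pass. With totals alone all 3 passed as rises. Atox1 also passed as a rise with no filter (0.38, adjusted p = 0.00423), at a mean of at least 5 CPM (0.56, adjusted p = 0.0303), in a fit without E11.5, E12 and E13.5 (0.36, adjusted p = 0.000274) and with only the stages compared (0.36, adjusted p = 3.94e-05). Of the 10 low-oxygen genes 4 rose, 5 fell and 1 did not pass (median -0.48), with Ndrg1 up by 2.997 ± 0.10 and the glucose transporter gene Slc2a1 down by 2.75 ± 0.09. With totals alone the median of all genes in this comparison moved from 0.16 to 0.59, and with the length trend removed to -0.28. Of all genes called in it 55% rose, against 71.3% and 40.3% under those settings.

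Across the 11 stage means of log2 CPM, which share their libraries and scaling, Pearson correlations describe how alike the courses were. Lox correlated with Loxl1 at 0.961, with Loxl3 at 0.888 and with Loxl2 at -0.478. Serpinh1 correlated with Plod1 at 0.882 and with P4ha2 at 0.847, and Loxl2 with P4ha1 at 0.885. Correlations with the low-oxygen gene Slc2a1 were -0.828 for Lox, -0.803 for Loxl1, -0.795 for Loxl3 and -0.611 for Loxl4. They were 0.81 for Loxl2, 0.678 for Plod3, 0.338 for Plod2, 0.228 for P4ha2, 0.176 for Serpinh1 and 0.0818 for Plod1. Correlations with Pgk1 were -0.856 for Lox, -0.79 for Loxl1, -0.838 for Loxl3, -0.667 for Loxl4 and -0.0746 for Plod1. They were 0.695 for Loxl2, 0.504 for Plod3, 0.166 for Plod2, 0.133 for Serpinh1 and 0.055 for P4ha2. With Vegfa the order differed, at 0.843 for Plod2, 0.559 for P4ha2, 0.431 for Plod3, 0.369 for Loxl3 and 0.203 for Plod1. Vegfa gave 0.189 for Loxl2, 0.143 for Loxl4, 0.121 for Lox, 0.1 for Serpinh1 and -0.09 for Loxl1. Among 11566 genes searched, the most alike in course to Lox were B3gnt9 (0.992) and Heca (0.986), to Loxl1 Ifngr2 (0.995) and Col1a1 (0.987), and to Loxl2 Fam149a (0.965) and the integrin gene Itga5 (0.960). For Loxl3 they were Scarf2 (0.978) and the procollagen protease gene Bmp1 (0.970), and for Loxl4 Mob3c (0.949) and Angpt1 (0.944). The hydroxylases had Ets2 (0.978) beside Plod1, Slc39a14 (0.930) and Cers2 (0.912) beside Plod2, and Sppl2b (0.916) and Sipa1 (0.888) beside Plod3. Serpinh1 was most like S1pr2 (0.972) and Fkbp9 (0.967), and P4ha2 most like Obsl1 (0.947) and Gmppa (0.931).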

How the data were processed

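The data are RNA sequencing reads of mouse frontal bone, counted per gene in 33 libraries. The deposited values are whole-number counts that were not normalized, one column per library, per the file headers. Per the submitters' processing notes, cutadapt 1.9.1, HISAT2 2.0.1, HTSeq 0.6.1 and the build GRCm38 were used. The sources used here state neither an annotation release nor a strand setting. Column names gave the stage, and their letters could not be tied to the labels' replicate numbers. GENCODE M21 gave a symbol for 55141 of 55401 genes, and the table's exonic length equalled its exon union for all 10 members.

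Counts entered edgeR 4.0.16 (R 4.3.3) after its expression filter, which kept 20073 genes. Libraries were scaled by TMM (factors 0.797 to 1.175), and the quasi-likelihood fit had 1 mean for every stage and 22 residual degrees of freedom. P-values were Benjamini-Hochberg adjusted over all tested genes. A standard error is the absolute log2 fold change divided by the root of its F statistic. Log2 CPM used a prior count of 2. Shares and the Serpinh1 ratio came from counts per kilobase of exon, with two-sided exact permutation tests. Libraries within a stage differed beyond sampling noise (chi-square per gene at least 1.85). This value was 21.6 to 125 between E12 libraries, and 63.1 and 67.0 between E13.5 library c and libraries a and b. In all other pairs it was at most 11.4. Alternatives tried were DESeq2's size factors, totals alone, no filter, a mean of at least 5 CPM, DESeq2 1.42.0, a replicate block, removal of a length trend, fits without E11.5, E12 and E13.5 or with only the compared stages, E11.5 standing in for E12.5, and leaving out each library. Lengths of the longest coding transcript were added after seeing the data. Named are all 10 members, the 2 passing genes with the largest change in each list, every gene of lists of at most 3, and the 2 genes most alike to each member with a mean of at least 5 CPM, of which 1 is not reported here. The members and lists were chosen with earlier results of these data known. Adamts3, P3h2 and the overlapping genes were named after their values were seen. Figures were drawn with matplotlib 3.10.9.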

Additional observations from a re-analysis of the deposited data

How the results depend on the processing

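Of the 10 members in 16 comparisons, no call or direction changed with a replicate block on the column letter (160 of 160 results the same; Lox from E8.5 to E14.5 at 6.90), and the letters do not pair the libraries: over 165 pairs of libraries with the same letter the median correlation of deviations was -0.003. DESeq2 turned or ended no member call. The cause of the changes below was not tested. With library totals alone, log2 changes from E8.5 to E14.5 turned to 0.15 for Loxl2, 0.30 for Plod3, 0.075 for P4hb and 0.33 for Slc31a1, and from E11.5 to E12 to -0.27 for Plod1 and -0.28 for P4ha2. With the length trend removed Plod2 turned to -0.082 and P4ha1 to -0.15 from E8.5 to E14.5, and with E11.5 in place of E12.5 Plod2 turned to -0.032 from E10.5. The count of members that fell from E8.5 to E14.5 (1) was 0 with totals alone, no filter or at least 5 CPM and 2 with the length trend removed. From E8.5 to E10.5 it was 3, but 5 with DESeq2's size factors, DESeq2, only the stages compared or without E11.5, E12 and E13.5, 1 with totals alone and 6 with the length trend removed. From E10.5 to E12.5 it was 1, but 2 with the length trend removed or without those stages, 4 with E11.5 in place of E12.5, and 1 to 2 with a library left out (2 without E12.5 library c). From E11 to E12 it was 1, but 2 with DESeq2's size factors, DESeq2 or at least 5 CPM and 4 with totals alone, and the rises (5) numbered 1 with totals alone, 3 without the filter and 2 with only the stages compared; with a library left out the falls were 1 to 2 and the rises 2 to 5 (fewest without E12 library c). From E11 to E12.5 the rises (2) numbered 5 without E11.5, E12 and E13.5, and with a library left out rises were 1 to 2 and falls 0 to 1 (without E12.5 library c). Over all genes, any change was found in 12433 at 5 CPM or more (19136). Falls from E8.5 to E14.5 were 4265 with totals alone (6731) and rises 5086 at 5 CPM or more (8243). From E8.5 to E10.5 falls were 2728 with totals alone and 7126 with the length trend removed (4272), and rises 3766 at 5 CPM or more (5666). From E10.5 to E12.5 falls were 2211 with totals alone, 5486 with the length trend removed and 5595 with E11.5 in place of E12.5 (3444), and from E12.5 to E14.5 they were 3655 at 5 CPM or more (5736). From E11 to E12.5 rises were 2895 without E11.5, E12 and E13.5 and 1999 with only the stages compared (1323), and falls 2433 and 2131 (1393). The share of rises among called genes from E8.5 to E10.5 was 57.0%, against 72.5% with totals alone and 36.6% with the length trend removed; from E10.5 to E12.5 it was 52.2%, against 68.4% and 36.8%; and from E12.5 to E14.5 it was 46.9%, against 58.4% with totals alone. Without division by exonic length the changes in share from E8.5 to E14.5 were 67.9 points for Lox (65.2), 6.39 for Loxl1 (8.45), -68.9 for Loxl2 (-66.8) and -6.01 for Loxl3 (-7.57), and the log2 change of the Serpinh1 ratio was -3.02 (-3.17). With the length of the longest coding transcript they were 9.03 for Plod1 (7.36), -65.6 for Loxl2 and -3.0 for the ratio, and with Col1a1 and Col1a2 alone the ratio changed by -4.89. With a library left out, 893 of 960 member results were the same, 57 no longer passed and 10 newly passed. Depth limits Loxl4, whose lowest library held 2 counts.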
